A study of Mus musculus with 6 samples.

Results

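The transcription factors that set lipid and glucose use in fat cells were followed here in adipocytes with the PU.1 gene targeted. They are encoded by 10 mouse genes: Pparg, Ppara and Ppard (the PPAR receptors), Rxra and Rxrb (their RXR partners), Nr1h3 and Nr1h2 (the liver X receptors LXRα and LXRβ), Srebf1 and Srebf2 (the sterol regulatory element binding proteins) and Mlxipl (ChREBP). The genes were chosen with earlier results of these data known and picked by symbol from the annotation. These 10 are among 35122 genes in the table. RNA was sequenced from the epididymal adipocyte fraction, the layer that floats after collagenase digestion of the fat pad, of 3 control and 3 aPU.1KO mice, each giving 1 library. All 6 were chow-fed C57BL/6 males, 10 to 11 months old by their labels, and all carried loxP sites around exon 5 of both copies of Spi1, the gene of PU.1. The aPU.1KO mice also carried a Cre transgene driven by the promoter and enhancer of adiponectin (Adipoq-Cre), which is active in adipocytes, so that macrophages and other cells keep an intact Spi1. Values are per mouse, and p-values set the difference between the groups against the variation between mice.

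PPARγ is the master regulator of adipocyte differentiation and binds DNA as a heterodimer with an RXR. PPARα and PPARδ drive genes of fatty acid oxidation. The LXRs bind oxysterols, also as RXR heterodimers, and activate genes of cholesterol efflux as well as Srebf1. SREBP-1 drives fatty acid synthesis and SREBP-2 cholesterol synthesis, and both are released from the membrane by proteolysis when SCAP and the INSIG proteins allow it. ChREBP responds to glucose metabolites, pairs with MLX and activates glycolytic and lipogenic genes. PU.1 is an ETS factor best known from macrophages and B cells.

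Promoter sequence was read from RefSeq (GRCm38.p6) for all 10 genes, as the 250 bases before each of their 18 start sites. The letters GAGGAA, the core of a PU.1 box, were searched on both strands and stood in 2 of the 18 windows against 23.3% of all 32851 such windows of the genome. One was the window of a Pparg start site and the other that of a Ppard start site. An E-box (CACGTG) stood in 1 window, the more upstream start site of Mlxipl, against 6.02% of all windows, and a sterol regulatory element (TCACNCCAC, both strands) in 1 window, the downstream Mlxipl start site, against 1.05%. The receptor repeats DR1 and DR4, a pair of AGGTCA letters in the same orientation set 1 or 4 bases apart, were searched on both strands and were in none of the 18 windows, and in 0.0335% and 0.0152% of all windows. The 4 windows with a match are shown 5′ to 3′ with the matched letters in capitals, because PU.1 is the factor removed and Mlxipl is a member with groups that stood apart. The Ppard and Pparg stretches end at the base before an annotated exon that reaches into their window, and Pparg has a further start site upstream of the stretch shown. All 4 are on the + strand.
Mlxipl, upstream start, chr5:135089640-135089889: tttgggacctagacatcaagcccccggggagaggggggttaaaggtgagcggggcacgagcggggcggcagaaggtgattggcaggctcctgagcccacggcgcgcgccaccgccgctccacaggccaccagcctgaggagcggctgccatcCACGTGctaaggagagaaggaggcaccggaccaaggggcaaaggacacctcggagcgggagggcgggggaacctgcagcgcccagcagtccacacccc
Mlxipl, downstream start, chr5:135106641-135106890: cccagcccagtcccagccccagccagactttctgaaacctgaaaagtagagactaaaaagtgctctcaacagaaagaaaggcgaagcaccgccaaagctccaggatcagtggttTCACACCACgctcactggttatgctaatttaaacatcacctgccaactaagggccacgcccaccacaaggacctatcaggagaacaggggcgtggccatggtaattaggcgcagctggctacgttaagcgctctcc
Ppard, chr17:28232504-28232699: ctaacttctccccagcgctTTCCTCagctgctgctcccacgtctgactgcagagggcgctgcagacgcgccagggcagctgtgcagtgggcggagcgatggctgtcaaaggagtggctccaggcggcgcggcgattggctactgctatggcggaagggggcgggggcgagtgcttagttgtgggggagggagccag
Pparg, chr6:115362099-115362291: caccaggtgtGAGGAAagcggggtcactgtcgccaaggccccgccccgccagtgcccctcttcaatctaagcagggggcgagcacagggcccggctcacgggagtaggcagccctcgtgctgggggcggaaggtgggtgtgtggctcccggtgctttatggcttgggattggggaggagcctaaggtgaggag
In Ppard the match begins 231 bases before the start site and reads TTCCTC, the reverse complement of the core. The Pparg match begins 240 bases before its start site on the sense strand. Mlxipl holds the E-box 98 bases before the upstream start and the element TCACACCAC 136 bases before the downstream one. A match says only that these letters are present, and a window without one leaves sites elsewhere unsearched. The paper, from published PU.1 binding peaks in a cultured adipogenic cell line, counts Srebf1 and Nr1h3 among direct targets of PU.1. Counts per gene do not separate the start sites.

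The depth was 20550252 to 24310144 counts in 5 libraries and 69283842 in control mouse 1, and the 10 members had between 185 and 18264 counts in a library. Spi1 (chromosome 2, 91082390 to 91115756) stood at 24.3, 6.35 and 26.7 CPM, the count relative to library size after TMM scaling, in control mice 1, 2 and 3, and at 3.20, 1.22 and 4.17 CPM in aPU.1KO mice 1, 2 and 3. The log2 fold change of Spi1 was -2.75 (SE 0.64, edgeR adjusted p = 0.0788, DESeq2 adjusted p = 7.8e-05). Counts are per gene, so that exons outside the floxed one are still counted. Adipocyte markers were present in every library, with a summed level over 10 genes of 25758 to 27992 CPM in controls and 31206 to 37200 CPM in aPU.1KO mice, and 8 of these 10 markers are also in the list of PPARγ targets below. Macrophage markers summed over 15 genes gave 1859, 551 and 1803 CPM in the controls and 273 to 383 CPM in the aPU.1KO mice, with 13 of the 15 lower and all 15 above 0. Control mouse 2 was the lowest control for both Spi1 and this sum, and the part of macrophages in the Spi1 level was not tested. Progenitor and fibroblast markers were 2292 to 3055 against 1275 to 1801 CPM, with 12 of 12 lower, and hepatocyte markers 52.5 to 78.5 against 20.2 to 26.6 CPM, with 13 of 13 lower. Lymphocyte markers had 4.90 to 8.80 CPM in controls and 2.49 to 4.59 CPM in aPU.1KO mice. The ranges of the groups overlapped for endothelial markers, at 676 to 953 and 400 to 866 CPM, for mesothelial markers, at 5.08 to 18.5 and 6.76 to 9.09 CPM, and for immediate early genes, at 3133 to 3872 and 2565 to 7188 CPM. The part of these cells in the differences below was not tested, and in bulk RNA fewer cells of a type and less RNA per cell cannot be told apart.

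Of the 10 regulators, 8 had a positive log2 fold change in aPU.1KO adipocytes and 2, Ppard and Srebf2, a negative one, against 3 positive when libraries were scaled to adipocyte markers, where 8.7% of all genes were positive, and 7 with library totals alone, where 33.9% were. None passed an adjusted p under 0.05 in edgeR's quasi-likelihood test, where 0.237% of the 13925 genes tested passed (0.0575% higher and 0.18% lower). By unadjusted p under 0.05, 5 members were higher (Pparg, Ppara, Nr1h3, Srebf1 and Mlxipl) against 11.9% of all genes, and 2 were lower (Ppard and Srebf2) against 13.7%, together 7 of 10 against 25.7%. DESeq2 called 3 members higher at an adjusted p under 0.05 (Nr1h3, Srebf1 and Mlxipl), against 3.88% of genes, and none lower, against 8.36%. The 3 aPU.1KO mice were all above the 3 controls for 5 members (Ppara, Rxrb, Nr1h3, Srebf1 and Mlxipl), as for 16.7% of all genes, and all below them for 1 member (Ppard), as for 15.5%, together 6 of 10 against 32.1%. The median log2 fold change was 0.28 over the members and 0.01 over all genes, of which 52.0% were positive. Since the members were chosen with earlier results known, these shares describe them and do not test for an excess. aPU.1KO mouse 2 had the highest level of its group for 9 of the 10 members.

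**Figure D1:**
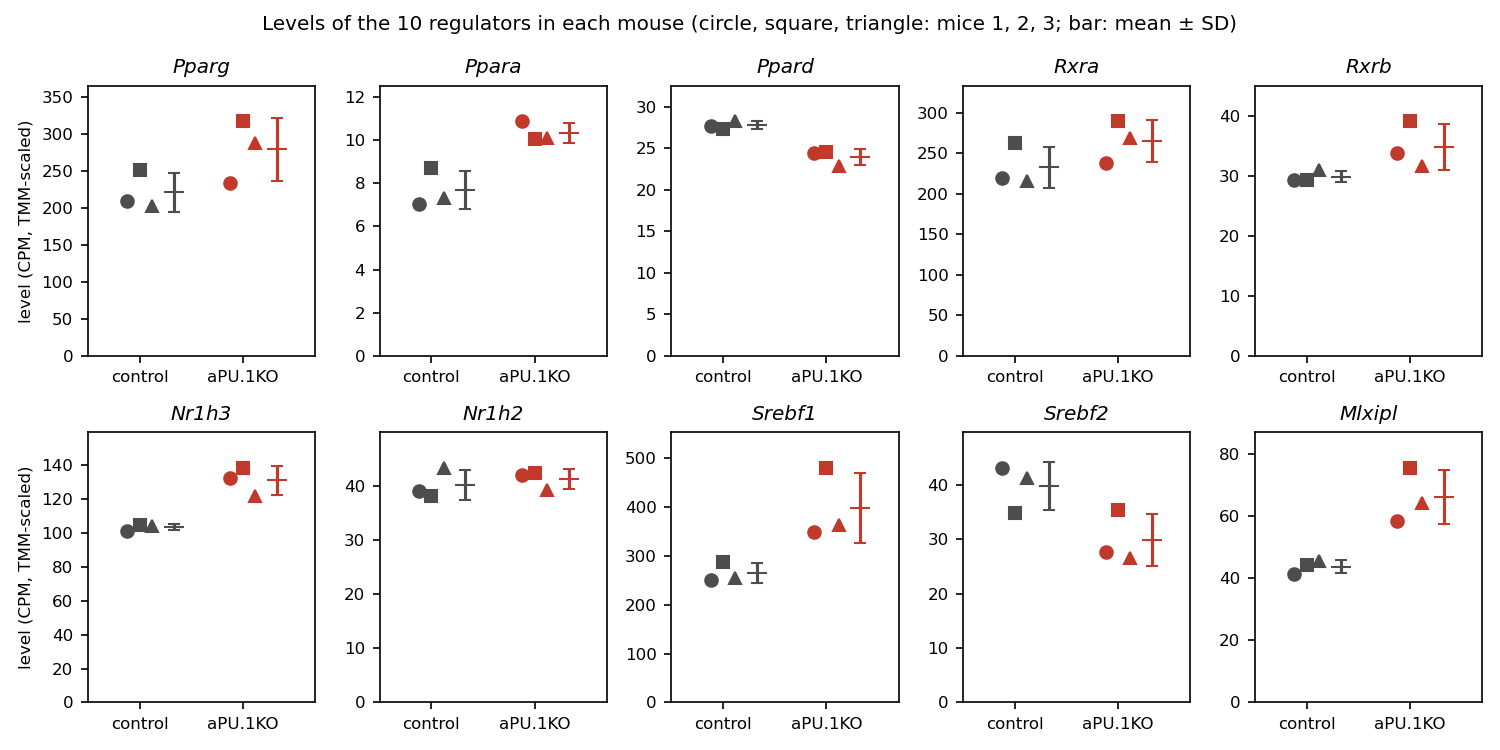
Level of each of the 10 regulators (y axis, CPM after TMM scaling, each panel from 0) in the 3 control mice (grey) and the 3 aPU.1KO mice (red). Circles, squares and triangles are mice 1, 2 and 3, and the bar is the mean ± SD. The 2 groups stand apart for Ppara, Ppard, Rxrb, Nr1h3, Srebf1 and Mlxipl and overlap for the other 4.

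Srebf1 encodes SREBP-1, the lipogenic member of its family (chromosome 11, 60199089 to 60222581, - strand). Its level was 251.5, 288.1 and 255.2 CPM in control mice 1, 2 and 3 and 349.6, 481.0 and 363.7 CPM in aPU.1KO mice 1, 2 and 3. All aPU.1KO mice were above the controls, and aPU.1KO mouse 2 stood well above the other two of its group. The means were 264.9 ± 20.2 and 398.1 ± 72.1 CPM (SD, n = 3 each), a log2 fold change of 0.59 (SE 0.14, edgeR adjusted p = 0.0830, DESeq2 adjusted p = 0.00597). Without aPU.1KO mouse 2 the log2 fold change was 0.43 with an edgeR adjusted p of 0.115. Srebf1 shares 109 exon bases with Rai1 on the opposite strand, which had 4388 counts over all libraries against 56479 of Srebf1, and whether the counting used strand is not given in the sources used here. Most like Srebf1 over the 6 libraries was Nr1d2, a circadian repressor (REV-ERBβ), with a root-mean-square difference of 0.0365 between their log2 CPM, each centered on its mean. The likeness of genes is given below in the same measure, over the 13924 other genes tested, as a description. The member most like it was Mlxipl, at 0.0800.

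Srebf2 encodes SREBP-2, the cholesterol-synthesis member (chromosome 15, 82147181 to 82205379, + strand). In contrast to Srebf1, its level was 43.1, 34.8 and 41.3 CPM in the controls and 27.6, 35.3 and 26.5 CPM in the aPU.1KO mice. Only aPU.1KO mouse 2 reached the control range, just above control mouse 2. Its mean was 39.8 ± 4.38 CPM in controls and 29.8 ± 4.81 CPM in aPU.1KO mice, a log2 fold change of -0.42 (SE 0.14, edgeR adjusted p = 0.132, DESeq2 adjusted p = 0.0719). The closest gene in pattern was Nfxl1, at a root-mean-square difference of 0.0304.

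Within a library, the ratio of 2 genes needs no scaling between libraries. The Srebf1 to Srebf2 ratio of counts was 5.83, 8.27 and 6.17 in the controls and 12.7, 13.6 and 13.7 in the aPU.1KO mice. The groups stood apart, and the difference of the log2 ratio was 1.00 (SE 0.16). The exact two-sided permutation test gave p = 0.1, the smallest value that 3 mice against 3 can give, and 0.167 after adjustment over the 5 ratios compared.

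**Figure D2:**
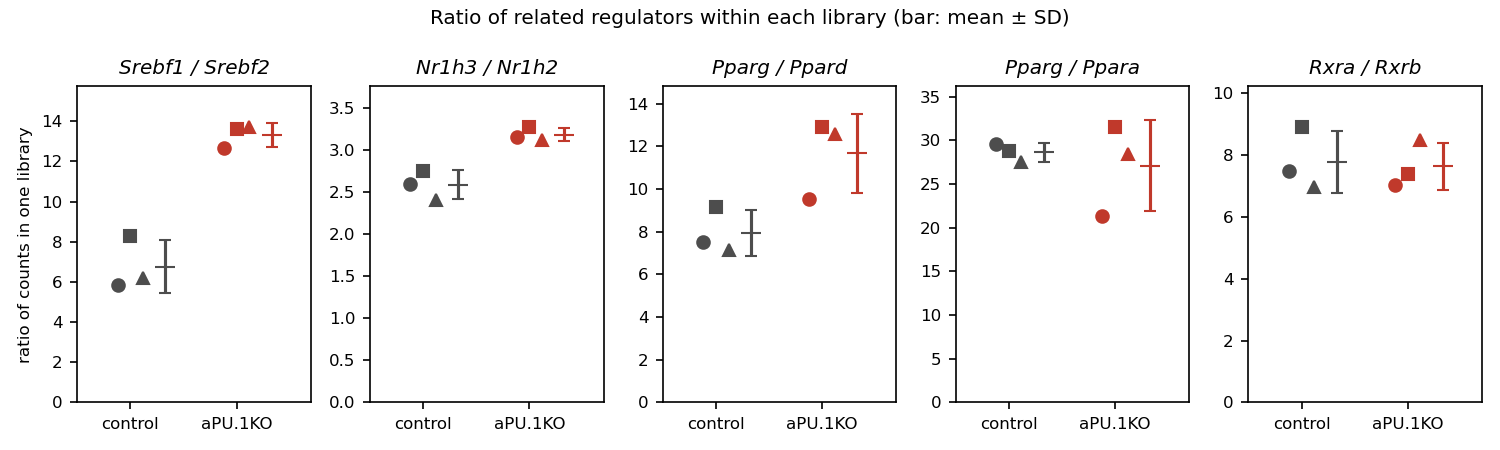
Ratio of the counts of 2 related regulators within each library (y axis, each panel from 0) for 5 pairs, in control (grey) and aPU.1KO mice (red), with the mean ± SD as a bar. The Srebf1 to Srebf2 ratio runs from 5.83 to 8.27 in controls and from 12.7 to 13.7 in aPU.1KO mice, while the Pparg to Ppara and Rxra to Rxrb ratios overlap.

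Mlxipl encodes ChREBP, the glucose-responsive factor (chromosome 5, 135089890 to 135138382, + strand), and its promoter windows with an E-box and a sterol element are shown above. Controls 1, 2 and 3 had 41.6, 44.3 and 45.7 CPM, and aPU.1KO mice 1, 2 and 3 had 58.6, 75.7 and 64.2 CPM. Each aPU.1KO value exceeded each control value, and the controls lay within a few CPM of each other. With means of 43.8 ± 2.09 and 66.2 ± 8.70 CPM, the log2 fold change was 0.60 (SE 0.11), within 1 SE of the 0.59 of Srebf1. Its adjusted p was 0.0724 in edgeR and 0.000646 in DESeq2, and 0.0458 in edgeR without control mouse 2, the only mouse whose omission brought a member past the threshold. Without that mouse 1.41% of all genes were called higher. Mlxipl shares 235 exon bases with Gm43500 on the opposite strand. Nmrk1, a nicotinamide riboside kinase, was nearest in pattern at a root-mean-square difference of 0.0533. MondoA (Mlxip), the paralog that also pairs with MLX, was at 57.5, 59.2 and 55.1 CPM in controls and 40.5, 51.0 and 49.5 CPM in aPU.1KO mice, with a log2 fold change of -0.29 (edgeR adjusted p = 0.146). The Mlxipl to Mlxip ratio was 0.723, 0.748 and 0.829 in controls and 1.45, 1.48 and 1.30 in aPU.1KO mice, higher in each aPU.1KO mouse than in any control. This ratio was chosen after its values were seen and was not tested.

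Nr1h3 (LXRα; chromosome 2, 91184061 to 91202834, - strand), the LXR enriched in liver, fat and macrophages, had 101.4, 104.8 and 104.4 CPM in the controls and 132.5, 138.7 and 122.2 CPM in the aPU.1KO mice. The controls were nearly equal and all aPU.1KO mice were above them. Its means of 103.5 ± 1.89 and 131.1 ± 8.32 CPM gave a log2 fold change of 0.34 (SE 0.08, edgeR adjusted p = 0.0783, DESeq2 adjusted p = 0.00605). This log2 fold change was 0.22 with library totals alone (edgeR adjusted p = 0.135). Macrophages also express Nr1h3, and their marker sum was 551 CPM or more in the controls and 383 CPM or less in the aPU.1KO mice. Their part in the level of Nr1h3 was not tested. Nr1h3 shares 34 exon bases with Gm13783 on the same strand. Abhd11, a mitochondrial hydrolase, was the closest gene (0.0181).

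Nr1h2 (LXRβ; chromosome 7, 44549616 to 44553951, - strand), the widely expressed LXR, had 39.0, 38.1 and 43.3 CPM in controls and 42.1, 42.4 and 39.2 CPM in aPU.1KO mice. These ranges overlapped, with means of 40.2 ± 2.79 and 41.2 ± 1.79 CPM and a log2 fold change of 0.04 (SE 0.08, edgeR adjusted p = 0.801). Without control mouse 2 it was -0.01. With library totals alone it was -0.09, where the median of all genes was -0.11, and relative to that median the value was 0.020 (0.024 with TMM scaling). 2700097O09Rik was nearest in pattern (0.0236). The Nr1h3 to Nr1h2 ratio was 2.60, 2.75 and 2.41 in controls and 3.15, 3.27 and 3.12 in aPU.1KO mice. The groups again stood apart, by 0.30 on the log2 scale (SE 0.06, exact permutation p = 0.1, adjusted 0.167).

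Pparg (chromosome 6, 115360951 to 115490399, + strand) was at 208, 251 and 202 CPM in the controls and at 233, 317 and 288 CPM in the aPU.1KO mice. Control mouse 2 lay above aPU.1KO mouse 1, and the other controls lay below all aPU.1KO mice. With means of 220.6 ± 26.7 and 279.1 ± 42.5 CPM, the log2 fold change was 0.34 (SE 0.14, edgeR adjusted p = 0.194, DESeq2 adjusted p = 0.196). This log2 fold change was 0.22 with library totals alone (edgeR adjusted p = 0.346). The nearest gene was Pla2g12a, a secreted phospholipase (0.0322), and the nearest member was Rxra (0.0879).

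Ppara (chromosome 15, 85734983 to 85802819, + strand), the fasting and fatty acid oxidation receptor of liver, had levels of 7.04, 8.71 and 7.34 CPM in controls and 10.9, 10.0 and 10.1 CPM in aPU.1KO mice. The groups did not overlap. Means of 7.70 ± 0.893 and 10.3 ± 0.471 CPM gave a log2 fold change of 0.43 (SE 0.14, edgeR adjusted p = 0.118, DESeq2 adjusted p = 0.0841). These levels rest on 185 to 511 counts per library. Klf15, a glucocorticoid-induced zinc-finger factor, was nearest in pattern (0.0351).

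Ppard (chromosome 17, 28232700 to 28301474, + strand), the broadly expressed PPAR, was on average lower in aPU.1KO mice, as Srebf2 was. It had 27.7, 27.4 and 28.3 CPM in controls and 24.4, 24.5 and 22.8 CPM in aPU.1KO mice. No value of one group reached the other, although the means of 27.8 ± 0.463 and 23.9 ± 0.950 CPM were close, with a log2 fold change of -0.22 (SE 0.08, edgeR adjusted p = 0.145, DESeq2 adjusted p = 0.141). This log2 fold change was -0.34 with library totals alone (edgeR adjusted p = 0.0848). Ip6k2, an inositol hexakisphosphate kinase, was nearest (0.0288).

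The Pparg to Ppard ratio was 7.52, 9.18 and 7.14 in controls and 9.54, 12.9 and 12.6 in aPU.1KO mice. The groups did not overlap, but control mouse 2 and aPU.1KO mouse 1 were close, and the log2 difference was 0.55 (SE 0.18, exact permutation p = 0.1, adjusted 0.167). The Pparg to Ppara ratio was 29.6, 28.8 and 27.5 against 21.4, 31.5 and 28.5, a log2 difference of -0.10 (SE 0.17, exact permutation p = 0.8) that overlapped.

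Rxra (chromosome 2, 27676440 to 27762957, + strand), the main RXR of fat, had 219, 262 and 216 CPM in controls and 238, 289 and 268 CPM in aPU.1KO mice. The ranges overlapped, and the means of 232.5 ± 25.6 and 265.4 ± 25.8 CPM gave a log2 fold change of 0.19 (SE 0.12, edgeR adjusted p = 0.340, DESeq2 adjusted p = 0.463). It was 0.12 without aPU.1KO mouse 2 and 0.070 with library totals alone. Scai, a transcriptional cofactor, was nearest in pattern (0.0302). The Pparg to Rxra ratio was 0.951, 0.959 and 0.934 in controls. In aPU.1KO mice it was 0.978, 1.09 and 1.07, each above every control. This ratio was described after its values were seen and was not tested.

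Rxrb (chromosome 17, 34031812 to 34038399, + strand), the ubiquitous RXR, had 29.3, 29.4 and 31.0 CPM in controls and 33.8, 39.1 and 31.6 CPM in aPU.1KO mice. The groups stood apart by less than 1 CPM, with means of 29.9 ± 0.960 and 34.9 ± 3.86 CPM and a log2 fold change of 0.22 (SE 0.10, edgeR adjusted p = 0.219, DESeq2 adjusted p = 0.319). It was 0.13 without aPU.1KO mouse 2 and 0.093 with library totals alone. Fam162a, a mitochondrial protein, was nearest in pattern (0.0193). The Rxra to Rxrb ratio was 7.48, 8.90 and 6.97 in controls and 7.04, 7.39 and 8.48 in aPU.1KO mice, a log2 difference of -0.02 (SE 0.13, exact permutation p = 0.8).

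**Figure D3:**
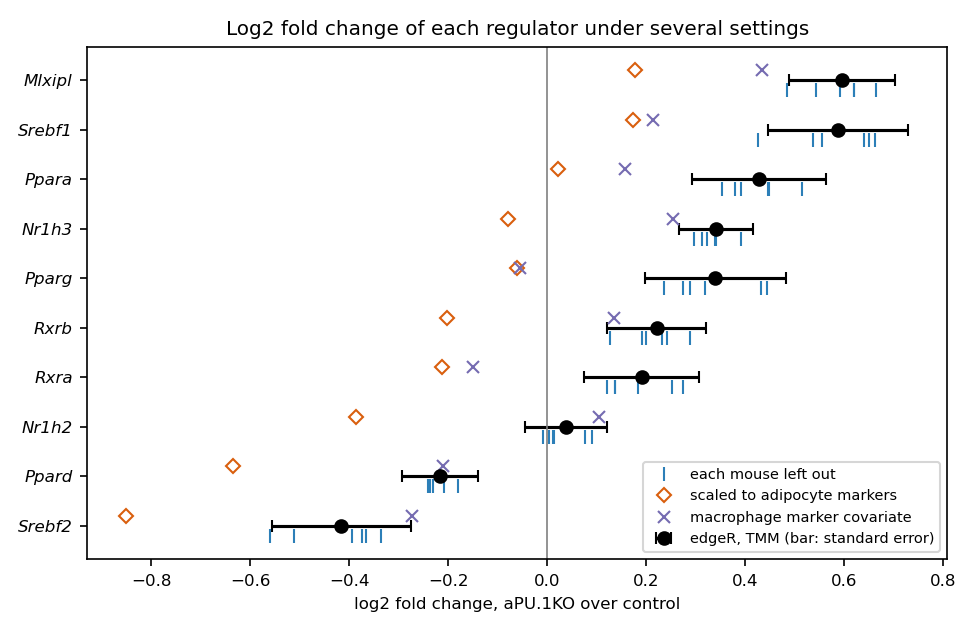
Log2 fold change of aPU.1KO over control (x axis) for each regulator. Black points with bars are the edgeR estimate ± SE, blue ticks leave out each mouse in turn, open diamonds scale the libraries to the adipocyte markers, and crosses use the macrophage marker level as a covariate. Scaling to adipocyte markers moves all members left, with Mlxipl at 0.18 and Srebf2 at -0.85.

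Scaling the libraries to the geometric mean of the adipocyte markers moved the median of all genes from 0.01 to -0.40, and the members moved with it. On that scale Mlxipl was at 0.18, Srebf1 at 0.17, Ppara at 0.02, Pparg at -0.06, Nr1h3 at -0.08, Rxrb at -0.20, Rxra at -0.21 and Nr1h2 at -0.39. Ppard at -0.64 and Srebf2 at -0.85 then passed edgeR's threshold (adjusted p = 0.0287 and 0.0235), as did 19.8% of all genes in that direction. Relative to the median of all genes, Mlxipl stood at 0.58, Srebf1 at 0.57 and Srebf2 at -0.45 on this scale, and library totals alone gave 0.58, 0.57 and -0.44. With the macrophage marker level as a covariate, which separates the groups as the genotype does, Mlxipl was at 0.43, Nr1h3 at 0.25 and Srebf1 at 0.21. Ppara was then at 0.16, Rxrb at 0.14 and Nr1h2 at 0.11. Pparg was at -0.05, Rxra at -0.15, Ppard at -0.21 and Srebf2 at -0.27, with no gene called. Genotype and macrophage content cannot be told apart in that fit.

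Per kilobase of exon the order of the members in controls ran from Pparg, at 74.7 ± 9.05 CPM per kb, through Srebf1 (47.0 ± 3.58), Rxra (42.6 ± 4.69) and Nr1h3 (41.2 ± 0.751) to Nr1h2 (12.0 ± 0.833), Mlxipl (7.92 ± 0.377), Rxrb (7.53 ± 0.242), Srebf2 (5.53 ± 0.610), Ppard (3.70 ± 0.0616) and Ppara (2.01 ± 0.233). The abundant members were thus the adipogenic receptor, its main partner, LXRα and SREBP-1. In controls Srebf1, Rxra and Nr1h3 overlapped their neighbors in this order, as did Mlxipl and Rxrb, and the other neighbors stood apart. In aPU.1KO mice Pparg was at 94.5 ± 14.4 and Srebf1 at 70.7 ± 12.8 CPM per kb, and their ranges overlapped. Nr1h3, at 52.1 ± 3.31, had the higher mean there than Rxra, at 48.6 ± 4.72, with overlapping ranges. Mlxipl, at 12.0 ± 1.57, overlapped Nr1h2, at 12.3 ± 0.535. Dividing by the longest transcript exchanged Rxra and Nr1h3 in controls and kept the other 8 ranks. In aPU.1KO mice it exchanged Srebf2 and Ppard, whose ranges then overlapped.

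**Figure D4:**
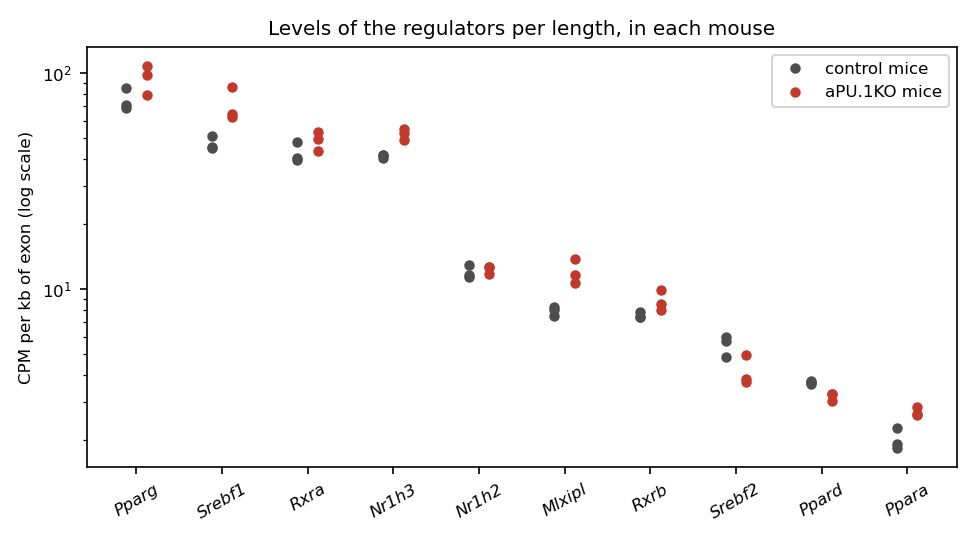
Level of each regulator per kilobase of merged exon (y axis, CPM per kb, log scale), in control (grey) and aPU.1KO mice (red), 1 point per mouse. In controls the means run from 74.7 for Pparg to 2.01 for Ppara, and in aPU.1KO mice the points of Mlxipl reach those of Nr1h2.

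The genes that these factors control or work with were read from 9 lists, 158 distinct genes tested in all, of which 1 passed edgeR's adjusted p, and 0 passed when any mouse other than control mouse 2 was left out. The lists too were chosen with earlier results of these data known, so the shares below are a description. At an unadjusted p under 0.05, 36 were higher and 14 lower, 22.8% and 8.86% of the list genes against 11.9% and 13.7% of all genes. With library totals alone 24 were higher and 27 lower (15.2% and 17.1%, against 5.15% and 19.1% of all genes). Scaled to adipocyte markers, 9 were higher and 58 lower (5.7% and 36.7%, against 0.718% and 43.4%). With the macrophage covariate there was 1 in each direction (0.797% and 2.01% of all genes). Without control mouse 1 there were 19 and 7, 12.0% and 4.43% of the list genes against 4.15% and 8.1% of all genes, and without control mouse 3 there were 21 and 9, 13.3% and 5.7% against 7.17% and 10.3%. Leaving out control mouse 2 gave 35 and 16 (22.0% and 10.1%, against 11.0% and 15.1% of all genes). Leaving out aPU.1KO mouse 1 gave 28 and 13 (17.6% and 8.18%, against 8.83% and 11.9%). For aPU.1KO mouse 2 the counts were 25 and 17 (15.8% and 10.8%, against 10.0% and 14.9%). For aPU.1KO mouse 3 they were 51 and 19 (32.1% and 11.9%, against 13.3% and 14.2%). For single lists in the TMM fit with all mice the shares over all genes to set beside the counts are those given first, with 3.88% higher and 8.36% lower by DESeq2, and 16.7% higher and 15.5% lower without overlap of the groups. Of the 3 genes with the smallest p in each list, those reported here are described, and any other gene named below was picked after its values were seen. Scaling to the adipocyte markers lowered each median with that of all genes, and its value is given beside the first. With library totals alone the median of all genes was -0.11, and the median of each list was also lower than with TMM scaling. It turned negative for fatty acid oxidation targets (-0.0097, 10 of 24 positive) and for partners and processing proteins (-0.061, 4 of 17). The same held for coactivators and corepressors (-0.11, 7 of 19).

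SREBP-1 targets in fatty acid synthesis had 17 of 19 log2 fold changes positive and a median log2 fold change of 0.58 (0.18 when scaled to adipocyte markers). By unadjusted p under 0.05, 12 were higher and 0 were lower (11.9% and 13.7% of all genes), DESeq2 called 7 higher (3.88% of all genes), and the groups stood apart for 7 (16.7% of all genes). The 12 became 6 without control mouse 3 (7.17% of all genes higher), 7 without control mouse 1 (4.15%), aPU.1KO mouse 1 (8.83%) or aPU.1KO mouse 2 (10.0%), and 5 when scaled to adipocyte markers (0.718%). With the macrophage covariate the list had 0 such genes, 12 positive and a median of 0.091. Acly, which makes cytosolic acetyl-CoA from citrate, was at 419, 472 and 326 CPM in controls and 1074, 1232 and 649 CPM in aPU.1KO mice, a log2 fold change of 1.28 (SE 0.26, edgeR adjusted p = 0.0764). Thrsp (Spot 14), a lipogenic nuclear protein, differed by 1.18 (SE 0.28, adjusted p = 0.0825), and its partner Mid1ip1 by 0.73 (SE 0.19, adjusted p = 0.0942). In all 3 genes each aPU.1KO mouse exceeded each control. Fasn, the fatty acid synthase, spread widely at 4433, 5850 and 3139 CPM against 8377, 10738 and 5275 CPM, so that aPU.1KO mouse 3 lay below control mouse 2.

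SREBP-2 targets in cholesterol synthesis went both ways, with 8 of 22 positive and a median of -0.12 (-0.54 when scaled to adipocyte markers, -0.083 and -0.055 without aPU.1KO mouse 1 or 3, and 0.017 with the macrophage covariate). Fdft1 (squalene synthase) and Pmvk were higher at an unadjusted p under 0.05, and 4 genes lower, among them Dhcr7, Sqle and Mvd. The counts became 1 higher and 2 lower without control mouse 1 (4.15% and 8.1% of all genes). They were 2 and 8 with library totals alone (5.15% and 19.1%), and 0 and 17 when scaled to adipocyte markers (0.718% and 43.4%). Fdft1 was at 40.7, 47.7 and 38.1 CPM in controls and 59.5, 82.1 and 62.0 CPM in aPU.1KO mice, a log2 fold change of 0.69 (SE 0.15, edgeR adjusted p = 0.0783). Dhcr7, the reductase of a last step to cholesterol, differed by -0.67 (SE 0.17, adjusted p = 0.0873). The groups stood apart for both genes.

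ChREBP targets had 9 of 14 tested genes positive and a median of 0.26 (-0.14 when scaled to adipocyte markers, 0.11 without aPU.1KO mouse 1, 0.13 without aPU.1KO mouse 2 and 0.15 without aPU.1KO mouse 3). With all 17 genes of the list and no filter on low counts, 9 were positive and the median was 0.052. The 1 list gene that passed edgeR's adjusted p was in this list and was lower. Tkt (transketolase, of the pentose phosphate path) was at 458, 491 and 441 CPM in controls and 892, 1012 and 647 CPM in aPU.1KO mice, a log2 fold change of 0.88 (SE 0.17, edgeR adjusted p = 0.0753). Khk (ketohexokinase, of fructose use) differed by 0.36 (SE 0.11, adjusted p = 0.115), and Txnip, a glucose-induced arrestin, was the other gene higher at an unadjusted p under 0.05. Mlxip was among the 2 genes lower at an unadjusted p under 0.05.

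PPARγ targets of the mature adipocyte had 21 of 23 positive and a median of 0.29 (7 positive and -0.13 when scaled to adipocyte markers, 0.15 with the macrophage covariate), and by unadjusted p under 0.05, 10 were higher and 1, Lep, was lower. The 10 became 4 without control mouse 1 (4.15% of all genes higher), 5 without aPU.1KO mouse 1 (8.83%) or 2 (10.0%) and with library totals alone (5.15%), 3 when scaled to adipocyte markers (0.718%) and 0 with the macrophage covariate (0.797%), and 0 were lower when any control mouse was left out. DESeq2 called 10 higher and none lower. Pck1, the enzyme of glyceroneogenesis, was at 1125, 1614 and 947 CPM in controls and 2633, 2074 and 2143 CPM in aPU.1KO mice, a log2 fold change of 0.89 (SE 0.22, edgeR adjusted p = 0.0856). Mgst1, a microsomal glutathione transferase, differed by 0.48 (SE 0.13, adjusted p = 0.0922). Cfd (adipsin) differed by 1.71 (SE 0.48, adjusted p = 0.101), with 5595 CPM in aPU.1KO mouse 2 against 2498 and 1640 CPM in the other two. In all 3 the groups stood apart. The hormone leptin (Lep) had 4674, 4551 and 5029 CPM in controls and 2855, 1565 and 3949 CPM in aPU.1KO mice, below every control, while 21 of the 23 genes had a positive log2 fold change.

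Fatty acid oxidation targets of PPARα and PPARδ had 17 of 24 positive and a median of 0.12 (-0.31 when scaled to adipocyte markers, 0.055 without control mouse 2 and 0.21 with the macrophage covariate). Ucp3, a mitochondrial carrier, was at 25.8, 28.7 and 29.0 CPM in controls and 38.0, 36.9 and 44.3 CPM in aPU.1KO mice, a log2 fold change of 0.51 (SE 0.10, edgeR adjusted p = 0.0764). Pex11a, a peroxisome division factor, differed by 0.66 (SE 0.16, adjusted p = 0.0817), and Ehhadh and Acadvl were also higher at an unadjusted p under 0.05. These 4 higher genes became 8 without aPU.1KO mouse 3 (13.3% of all genes). They became 0 when scaled to adipocyte markers (0.718%) and 0 with the macrophage covariate (0.797%). In the opposite direction, Cpt1a, the gate of mitochondrial fatty acid entry, had 139.6, 124.5 and 141.6 CPM in controls and 81.9, 85.3 and 115.6 CPM in aPU.1KO mice, a log2 fold change of -0.52 (SE 0.14, adjusted p = 0.0990). For Ucp3, Pex11a and Cpt1a the groups did not overlap.

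LXR targets had 5 of 13 tested genes positive and a median of -0.10 (-0.50 when scaled to adipocyte markers), beside the log2 fold change of 0.34 of Nr1h3 itself. Without aPU.1KO mouse 2 the list turned, with 8 of 13 positive and a median of 0.044, and with the macrophage covariate it had 8 of 13 positive and a median of 0.028. Its median was -0.17 without aPU.1KO mouse 1 and -0.012 without control mouse 3. Apoc1, a lipoprotein component, was at 64.8, 71.7 and 68.3 CPM in controls and 97.4, 113.3 and 89.3 CPM in aPU.1KO mice, a log2 fold change of 0.55 (SE 0.10, edgeR adjusted p = 0.0729), and Apoe was the other gene higher at an unadjusted p under 0.05. Arl4c, a small GTPase, differed by -0.97 (SE 0.20, adjusted p = 0.0764). Pltp, the phospholipid transfer protein, had 301, 126 and 364 CPM in controls and 129, 56.3 and 110.3 CPM in aPU.1KO mice, a log2 fold change of -1.42 (SE 0.44, adjusted p = 0.116), with control mouse 2 below aPU.1KO mouse 1. Control mouse 2 also had the lowest macrophage marker sum of the controls, 551 CPM, and the part of macrophages in the LXR targets was not tested. Npc1, the lysosomal cholesterol exporter, was the third gene lower at an unadjusted p under 0.05. The efflux pumps Abca1 and Abcg1 differed by -0.10 and -0.47 (adjusted p = 0.706 and 0.486).

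Partners and processing proteins had 10 of 17 positive and a median of 0.07 (-0.35 when scaled to adipocyte markers, 0.0037 without control mouse 3, 0.023 without aPU.1KO mouse 1, and 0.040 without control mouse 2 or aPU.1KO mouse 2). Insig2, which holds SREBPs in the endoplasmic reticulum, was at 82.6, 93.2 and 80.8 CPM in controls and 121.6, 98.8 and 117.7 CPM in aPU.1KO mice, a log2 fold change of 0.40 (SE 0.11, edgeR adjusted p = 0.0934). Lpin1, a phosphatidate phosphatase and coactivator that is also in the SREBP-1 list, differed by 0.45 (SE 0.13, adjusted p = 0.105), and the groups stood apart for both. The third RXR gene, Rxrg, was also higher at an unadjusted p under 0.05, and Mlxip lower. Scap, the SREBP escort, and its proteases Mbtps1 and Mbtps2 differed by -0.08, -0.08 and -0.04, and Mlx by 0.07.

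Coactivators and corepressors had 11 of 19 positive and a median of 0.01 (-0.40 when scaled to adipocyte markers), in both cases equal to that of all genes at this precision, and had no stable sign, being between -0.050 (without aPU.1KO mouse 1) and 0.053 (without control mouse 2) with each mouse left out and -0.091 with the macrophage covariate. Ncoa3, a steroid receptor coactivator, was at 41.3, 33.9 and 35.1 CPM in controls and 26.0, 30.4 and 25.8 CPM in aPU.1KO mice, a log2 fold change of -0.43 (SE 0.11, edgeR adjusted p = 0.0942). Prdm16, a brown-fat determinant, differed by -0.69 (SE 0.25, adjusted p = 0.147), and Hdac3, the deacetylase of the NCoR complex, by 0.35 (SE 0.13, adjusted p = 0.151). Other receptors that pair with RXR had 5 of 9 positive and a median of 0.13 (-0.28 when scaled to adipocyte markers), which turned to -0.055 without aPU.1KO mouse 1, to -0.011 without aPU.1KO mouse 2 and to -0.11 with the macrophage covariate. Vdr, the vitamin D receptor, was at 1.60, 1.01 and 1.78 CPM in controls and 0.661, 0.181 and 0.710 CPM in aPU.1KO mice, a log2 fold change of -1.51 (SE 0.50, adjusted p = 0.129). Thra differed by 0.25 (SE 0.11, adjusted p = 0.222) and Rarb by -0.77 (SE 0.40, adjusted p = 0.274).

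**Figure D5:**
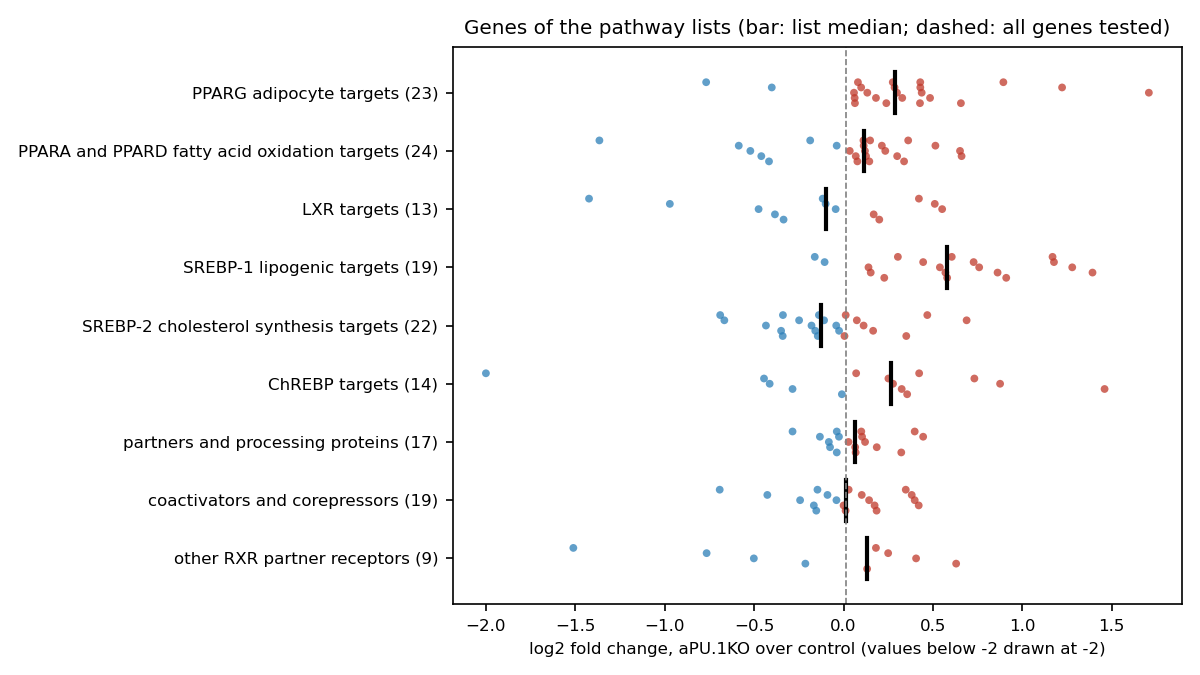
Log2 fold change of aPU.1KO over control (x axis) for each gene of the 9 lists, 1 point per gene, red above and blue below 0, with the number of genes tested in brackets. Black bars are list medians with TMM scaling, from 0.58 for SREBP-1 targets to -0.12 for SREBP-2 targets (0.18 and -0.54 when scaled to adipocyte markers), and the dashed line is the median of all genes tested. A value below -2 is drawn at -2.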

How the data were processed

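Epididymal adipocyte RNA came from 3 control and 3 aPU.1KO mice. The authors quantified reads with Salmon and deposited estimated counts per gene as whole numbers. The labels name GRCm38 and FastQC, and the Salmon version and annotation are not given in the sources used here. Of 35122 genes, 35031 had a symbol in GENCODE M21 (GRCm38), and genes without one held 0.0367% of counts. Coordinates are from that annotation. The labels give 10 to 11 months of age and the paper a higher age.

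The members and gene lists were chosen with earlier results of these data known. Groups were compared in edgeR 4.0.16 (filterByExpr, TMM, glmQLFit, glmQLFTest) under R 4.3.3 with Benjamini-Hochberg adjustment over 13925 genes, and all 10 members passed the filter. Alternatives were other scalings, other filters on low counts, DESeq2 1.42.0, limma-voom (limma 3.58.1), other dispersion settings, control library 1 thinned to 22774415 counts, a macrophage marker covariate and each mouse left out. Ratios used counts plus 0.5 and exact permutation tests. Named genes were the members, the 3 with the smallest p of each list with any called gene, and for each member the gene nearest in centered log2 CPM (prior count 2). Depth of 20550252 counts or more per library gave each member 185 counts or more in a library, and counting error weighs most on Ppara and Ppard, the members with the fewest counts. Results for some genes that this rule selects are not reported here. The steps were tested on simulated data. Figures were drawn with matplotlib 3.10.9.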

Additional observations from a re-analysis of the deposited data

How the results depend on the processing

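The log2 fold changes of Srebf1, Mlxipl, Ppara, Ppard and Srebf2 kept their direction under all 18 alternatives. Direction turned for Nr1h2 with library totals alone (-0.088), without control mouse 2 (-0.0075, the range with a mouse left out being -0.0075 to 0.091) and with scaling to adipocyte markers (-0.39). That scaling also turned Pparg (-0.061), Rxra (-0.21), Rxrb (-0.20) and Nr1h3 (-0.078), and the macrophage covariate turned Pparg (-0.054) and Rxra (-0.15). The ratio differences turned without aPU.1KO mouse 1 for Pparg to Ppara (0.066, lowest -0.21) and Rxra to Rxrb (0.032), and without control mouse 2 for Rxra to Rxrb (0.076, lowest -0.10).

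Members called numbered 2 with scaling to adipocyte markers, 3 with DESeq2, and 0 to 1 with each mouse left out, the 1 without control mouse 2. Over all genes, 2785 were called with that scaling, 146 without a filter, 5 with at least 10 counts in every library, 1805 with DESeq2 and 0 with the covariate, where 111 were higher and 280 lower by unadjusted p. Leaving out a mouse gave 0 (control mouse 1) to 1193 (control mouse 2), and 5 to 8 for the others. Without control mouse 1, edgeR's unadjusted p under 0.05 covered 582 higher genes and 1136 lower ones. List genes called numbered 31 with adipocyte scaling, 33 with DESeq2, 0 with at least 10 counts, 0 with the covariate and 0 to 12 (12 without control mouse 2) with a mouse left out. Members higher at an unadjusted p under 0.05 were 3 with library totals (5.15% of all genes), 0 with adipocyte scaling (0.718%), 0 with the covariate (0.797%) and 3 to 6 with a mouse left out (3 without control mouse 1, 4.15%, or 3, 7.17%), beside 11.9% of all genes in the TMM fit. Members lower were 3 with adipocyte scaling (43.4% of all genes) and 0 with the covariate (2.01%), beside 13.7% of all genes in the TMM fit. With a mouse left out they were 0 without control mouse 1 (8.1%), control mouse 3 (10.3%) or aPU.1KO mouse 3 (14.2%). They were 1 without aPU.1KO mouse 1 (11.9%) and 2 without control mouse 2 (15.1%) or aPU.1KO mouse 2 (14.9%). The causes were not tested. No paired analysis was possible because the labels number each mouse separately, share no number between groups and do not say which of the littermates came from 1 litter.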

Other observations

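Nr1h3 lies 68304 bases from Spi1 on chromosome 2, the gene that carries the loxP sites in both groups. Within 100000 bases of Spi1, 8 genes were tested, a window chosen after the values were seen. Apart from Spi1, 4 of 7 had a positive log2 fold change, and Nr1h3 and Ddb2, a DNA damage binding protein, were higher at an unadjusted p under 0.05. Madd, the 1 tested gene between Spi1 and Nr1h3, was at 11.3 ± 2.01 CPM in controls and 9.18 ± 3.17 CPM in aPU.1KO mice (SD, n = 3 each), a log2 fold change of -0.30 (SE 0.26, edgeR adjusted p = 0.512). Acp2, which borders Nr1h3 on its other side, was at 71.8 ± 4.68 and 64.6 ± 3.36 CPM, a log2 fold change of -0.15 (SE 0.08, edgeR adjusted p = 0.275). Ddb2 was at 5.54 ± 1.05 and 7.74 ± 1.24 CPM, a log2 fold change of 0.49 (SE 0.20, edgeR adjusted p = 0.185).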
